A study of Mus musculus with 6 samples.

Results

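Paneth cells sit at the base of small-intestinal crypts and release granules of antimicrobial proteins into the crypt lumen. The alpha-defensins are the best known of these proteins, and lysozyme, an angiogenin, a lectin, a phospholipase and a pentraxin are made by the same cells. The granule products reach the mucus layer above the crypt and also act on microbes that come near the stem cells. The 7 genes described here encode Paneth cell products other than defensins, namely Lyz1, Ang4, Mmp7, Itln1, Pla2g2a, Mptx2 and Habp2. They were taken by exact gene symbol from the 55446 genes of the authors' deposited table, and all 7 had been tested by the authors.

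The study sequenced RNA of ileal crypts from mice whose Adar alleles were floxed and which carried the Villin-CreERT2 transgene (Adar iΔgut, 3 libraries) and from mice with the floxed alleles only (Adar fl/fl, 3 libraries). CreERT2 is a Cre recombinase that tamoxifen activates, driven here by the villin promoter in gut epithelium, so that Adar, which encodes an RNA-editing enzyme, is to be deleted there. Both genotypes received tamoxifen, and the crypts were taken at day 3. The labels give no strain, age or sex. The authors deposited 1 pooled value for a condition named TMX and 1 for a condition named con, in FPKM (fragments per kilobase of transcript and scaled to library depth), so levels of different genes can be compared per length. No value per library stands behind them here, the depth is unknown, and no standard deviation can be given.

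The labels do not say which genotype each condition is, and TMX was read as Adar iΔgut by elimination. Adar itself stood at 52.0 FPKM in TMX and 19.5 FPKM in con in the authors' deposited table (q = 0.0575), so the targeted gene was not lower in the condition read as the deleted one. A gene-level value also counts exons that a deletion leaves, and it checks neither the deletion nor the labels. Each direction below is therefore that of the condition labelled TMX.

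Both lysozyme genes of the mouse lie side by side on chromosome 10, and stretches before their starts are shown here because Lyz2 rose in TMX while Lyz1 was not called. They come from the RefSeq promoter table for GRCm38.p6, on the minus strand, at chr10:117292918-117293036 for Lyz1 and chr10:117282322-117282441 for Lyz2. Each runs 5′ to 3′ and ends at base 50 before the RefSeq start, since GENCODE starts Lyz2 49 bases earlier than RefSeq does. Capitals mark the bases that differ or face a gap, at 21 of 120 aligned positions. A relation of these bases to the levels was not tested.
Lyz1: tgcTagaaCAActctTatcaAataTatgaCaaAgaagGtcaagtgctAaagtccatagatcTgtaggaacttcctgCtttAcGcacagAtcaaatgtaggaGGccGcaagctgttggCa
Lyz2: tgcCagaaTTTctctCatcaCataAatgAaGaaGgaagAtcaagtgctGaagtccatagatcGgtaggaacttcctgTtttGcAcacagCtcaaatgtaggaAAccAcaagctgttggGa

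The mucosal pentraxin genes Mptx2 and Mptx1 are a further pair of relatives, on opposite strands of chromosome 1 and further apart. Mptx1 fell and Mptx2 was not called. Their stretches come from the same table, at chr1:173277778-173277898 on the minus strand for Mptx2 and chr1:174330398-174330517 on the plus strand for Mptx1. That of Mptx2 ends at base 22 before its RefSeq start, since GENCODE starts Mptx2 21 bases earlier. That of Mptx1 ends at base 1 before its RefSeq start. Capitals mark the bases that differ or face a gap, at 12 of 122 aligned positions. Here too, a relation of these bases to the levels was not tested.
Mptx2: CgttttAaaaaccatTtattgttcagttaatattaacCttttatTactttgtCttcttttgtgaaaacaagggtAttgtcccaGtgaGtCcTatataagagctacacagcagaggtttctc
Mptx1: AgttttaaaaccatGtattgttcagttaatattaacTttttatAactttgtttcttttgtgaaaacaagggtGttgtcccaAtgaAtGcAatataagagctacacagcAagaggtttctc

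All 7 Paneth products were listed lower in TMX (Pla2g2a was higher once both conditions were scaled to the same summed FPKM), and 2 of them passed the authors' test. At the deposited values, Ang4 and Itln1 fell to under 30% of their con level. The other 5 members, which include the lysozyme and matrilysin genes, were not called. In the table the authors deposited, 2 of 7 members were called lower at q under 0.05 and 0 higher, beside 5.7% of the 15762 tested genes called lower and 6.6% called higher. Before adjustment, these 2 members and no other had a p under 0.05. Of the 657 tested genes with a mean of at least 100 FPKM, a level that 6 of the 7 members reach, 17.8% were called lower and 4.11% higher. The median log2 fold change (TMX over con, with 1 added to each FPKM) was -0.53 over the 7 members, against 0.05 over all tested genes and -0.23 over those of at least 100 FPKM. A p that misses the threshold does not show that a level was equal in both conditions.

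**Figure D1:**
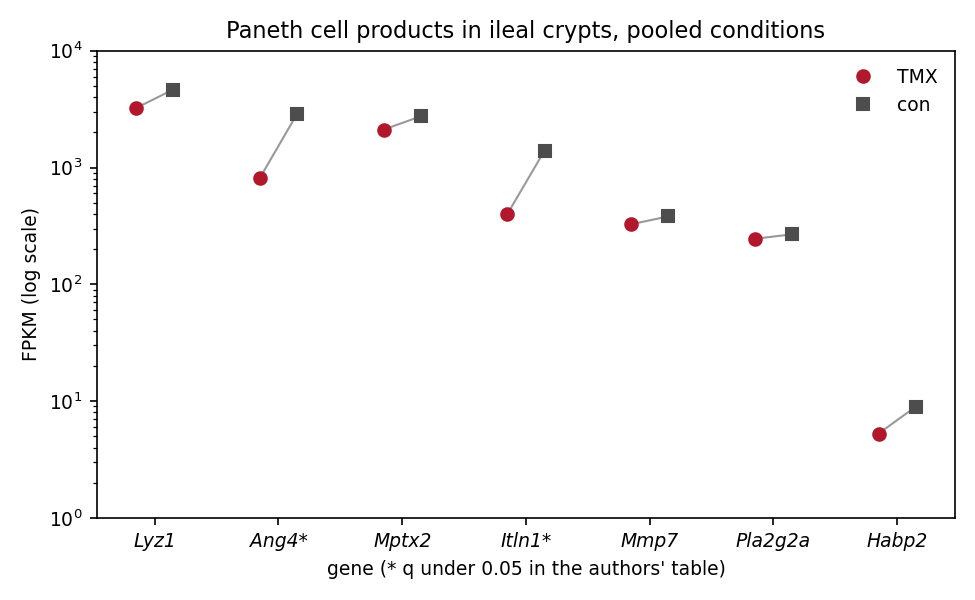
FPKM of the 7 Paneth products on a log axis, with the pooled TMX value as a circle and the pooled con value as a square, and an asterisk at genes with a q under 0.05 in the authors' deposited table. At these deposited values every circle lies below its square (Pla2g2a crosses over under the scaling to the same summed FPKM), with the widest gaps at Ang4 (815 FPKM in TMX, 2878 FPKM in con) and Itln1 (400.3 FPKM in TMX, 1396 FPKM in con).

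Ang4 encodes angiogenin 4, a secreted ribonuclease that kills bacteria, and in mice it is made by goblet cells as well as Paneth cells. It is ENSMUSG00000060615.5, on the minus strand of GRCm38 chromosome 14 from 51763878 to 51773590. Its level was 815 FPKM in TMX and 2878 FPKM in con in the authors' deposited table, a log2 fold change of -1.82 with q = 0.0360. That left 28.3% of the con level. When the genes without a test also entered the adjustment, the adjusted p of Ang4 was 0.126 and the call was lost.

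Itln1 encodes intelectin 1, a secreted lectin that binds sugars of microbial surfaces and is likewise made by Paneth and goblet cells. It is ENSMUSG00000038209.12, on the minus strand of chromosome 1 from 171518122 to 171535294. In the authors' deposited table it stood at 400.3 FPKM in TMX and 1396 FPKM in con, a log2 fold change of -1.80 with q = 0.0100. The remaining share of the con level was 28.7%, close to that of Ang4, and the ratio of Ang4 to Itln1 was 2.04 in TMX and 2.06 in con.

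Lyz1 encodes the lysozyme of Paneth granules, which cuts the peptidoglycan of bacterial walls. It is ENSMUSG00000069515.6, on the minus strand of chromosome 10 from 117287797 to 117292868. It was the most abundant member in both conditions, at 3235 FPKM in TMX and 4656 FPKM in con in the authors' deposited table (log2 fold change -0.53, q = 0.903). Its level in TMX was 69.5% of that in con, a gap that the authors' test did not call.

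Mptx2 encodes mucosal pentraxin 2, a member of the family of C-reactive protein. It is ENSMUSG00000079180.4, on the minus strand of chromosome 1 from 173274382 to 173277777. The authors' deposited table gave it 2112 FPKM in TMX and 2746 FPKM in con, with a log2 fold change of -0.38 and q = 0.903. In con it stood close to Ang4, with a ratio of Ang4 to Mptx2 of 1.05, and in TMX that ratio was 0.386.

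Mmp7 encodes matrilysin, the metalloprotease that cuts mouse pro-alpha-defensins into their active forms. It is ENSMUSG00000018623.9, on the plus strand of chromosome 9 from 7692090 to 7699585. Its level of 326 FPKM in TMX and 382 FPKM in con differed by -0.23 on the log2 scale in the authors' deposited table (q = 0.836). The alpha-defensins are the substrates of this enzyme. Of 25 tested alpha-defensin genes and pseudogenes, 1 was called lower (Defa-ps18, 5.73 FPKM in TMX and 21.5 FPKM in con, q = 0.0404) and 0 higher in the authors' deposited table, beside the 5.7% and 6.6% of all tested genes given above, and their median log2 fold change was -0.42.

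Pla2g2a encodes a secreted phospholipase A2 that attacks the membranes of Gram-positive bacteria. GENCODE annotates it as a polymorphic pseudogene (ENSMUSG00000058908.14, plus strand of chromosome 4, 138831857 to 138835186), since the gene is inactive in some inbred strains. It differed least of the 7, at 245 FPKM in TMX and 268 FPKM in con in the authors' deposited table, a log2 fold change of -0.13 with q = 0.949. With both conditions scaled to the same summed FPKM its log2 fold change was 0.09, so its direction rests on the scaling.

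Habp2 encodes hyaluronan-binding protein 2, a serine protease best known from blood plasma, where it comes from the liver. It is ENSMUSG00000025075.14, on the plus strand of chromosome 19 from 56287137 to 56320822. It was by far the least abundant member, at 5.27 FPKM in TMX and 8.96 FPKM in con in the authors' deposited table (log2 fold change -0.67, q = 0.402). Its level in TMX was 58.9% of that in con, a larger relative gap than for Lyz1, Mptx2, Mmp7 or Pla2g2a.

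**Figure D2:**
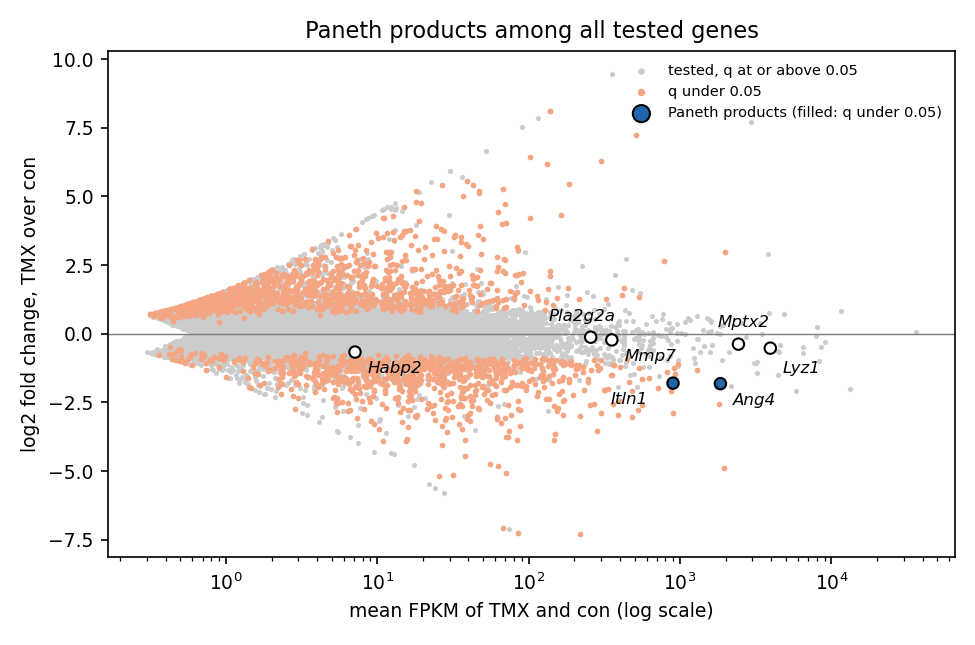
Log2 fold change (TMX over con) against mean FPKM on a log axis for the 15762 tested genes, with genes at q under 0.05 in orange and the 7 Paneth products as large circles, filled where called. Ang4 and Itln1 lie near -1.8, and the other members lie between -0.13 and -0.67.

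The order of the members changed at 1 place between the conditions. In TMX it ran Lyz1, Mptx2, Ang4, Itln1, Mmp7, Pla2g2a and Habp2, and in con Ang4 came before Mptx2. Without values per library, none of these steps can be set against a spread. Together the 7 genes summed to 7139 FPKM in TMX and 12334 FPKM in con. Ang4 and Itln1 made up 1216 FPKM of that sum in TMX and 4273 FPKM in con. The other 5 summed to 5924 FPKM in TMX and 8060 FPKM in con, a ratio of 0.735. All 39 listed alpha-defensin genes and pseudogenes summed to 22151 FPKM in TMX and 31487 FPKM in con, a ratio of 0.703. Lyz1 supplied 45.3% of the members' sum in TMX and 37.7% in con, whereas Ang4 supplied 11.4% in TMX and 23.3% in con. In bulk RNA, fewer cells of a type and less RNA per cell cannot be told apart.

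The size of a change and its p-value did not run in parallel among the members. Per unit of the authors' test score, the plain log2 ratio was 2.06 for Lyz1, at the 82.1st percentile of tested genes, and 1.54 for Mptx2, at the 72.3rd percentile. The corresponding amount was 0.665 for Mmp7, at the 16.6th percentile, against a median of 0.997 over tested genes. Lyz1 thus had a larger log2 change than Mmp7 (-0.53 and -0.23) and also a larger p-value, 0.667 for Lyz1 and 0.551 for Mmp7 in the authors' deposited table. No source at hand says what 1 unit of the score stands for.

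Some close relatives of the members were called where the members were not, and the difference between relatives was not tested. Lyz2, the lysozyme gene of macrophages and neutrophils, lies 5475 bases from Lyz1 and rose to 135 FPKM in TMX, against 4.20 FPKM in con, in the authors' deposited table (log2 fold change 4.71, q = 0.00112). Lyz1 was 23.9 times as abundant as Lyz2 in TMX and 1108 times as abundant in con. Myeloid markers moved with Lyz2, which is itself on that list of 14 genes. In the table the authors deposited, 9 of the 14 were called higher and 0 lower, beside 6.6% and 5.7% of all tested genes. The FPKM of the 14 summed to 456 in TMX and 15.9 in con, and Ly6g was listed at 0 in con. Their part in the values of Lyz1 was not tested.

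Mptx1 fell to 9.06 FPKM in TMX, against 137 FPKM in con, in the authors' deposited table (log2 fold change -3.78, q = 0.00112), while Mptx2 was not called. Mptx2 was thus 233 times as abundant as Mptx1 in TMX and 20.0 times as abundant in con. Mptx1 was the only other pentraxin gene of 8 on the list with a test, and 4 of them were listed at 0 in each condition.

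No relative of Ang4 was called among 7 tested genes, 6 of the ribonuclease A family and the inhibitor gene Rnh1. Before adjustment, 0 of them had a p under 0.05 in either direction. With 5.7% of all tested genes called lower and 6.6% higher, a count of 0 among 7 is near that background. Ang, the classical angiogenin gene, was at 6.87 FPKM in TMX and 13.9 FPKM in con, and Rnase4 was at 71.2 FPKM in TMX and 90.7 FPKM in con, in the authors' deposited table (q = 0.861 and 0.594).

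Among 7 tested genes, 6 of the secreted phospholipase family and 1 of a receptor, a gene in each direction was called in the authors' deposited table. Of all tested genes 5.7% were called lower and 6.6% higher, so a single call among so few genes is no result about a family. Pla2g12b, a gene of the secreted phospholipase family, fell to 33.9 FPKM in TMX, against 66.7 FPKM in con, in the authors' deposited table (q = 0.0314). The receptor gene Pla2r1 rose to 2.51 FPKM in TMX, against 0.313 FPKM in con, in the authors' deposited table (q = 0.00733). Of 4 tested genes related to Habp2, 1 was called, beside the same shares of all tested genes. This gene, Plat, which encodes tissue plasminogen activator, rose to 38.2 FPKM in TMX, against 0.461 FPKM in con, in the authors' deposited table (q = 0.00112).

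**Figure D3:**
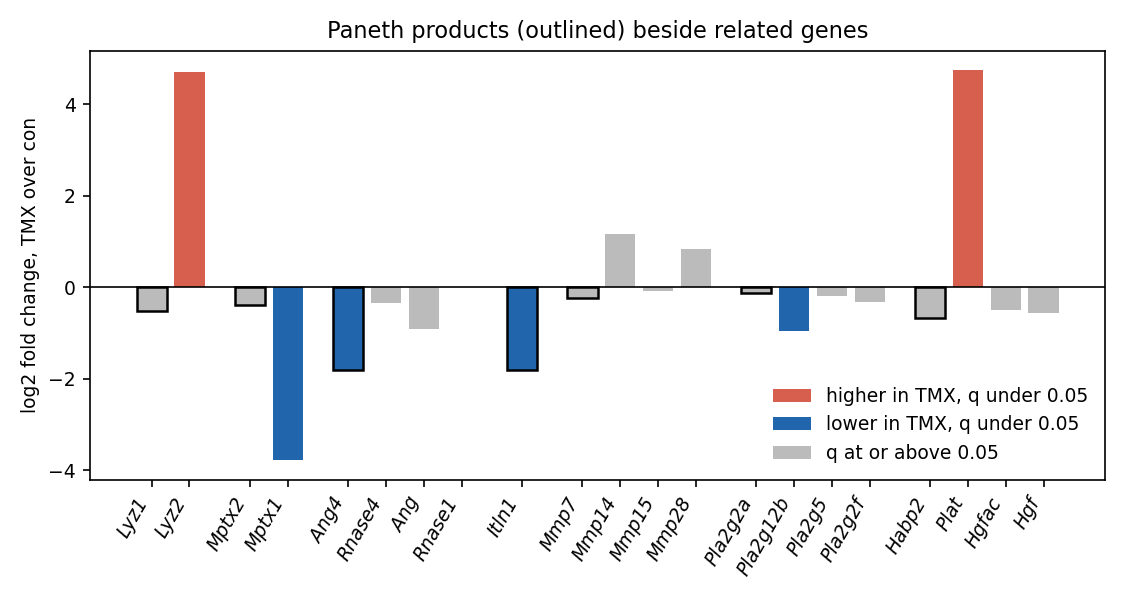
Log2 fold change (TMX over con) of each Paneth product (outlined bars) and of up to 3 tested relatives with the highest mean FPKM, coloured by the call in the authors' deposited table. Lyz2 stands at 4.71 beside Lyz1 at -0.53, and Mptx1 at -3.78 beside Mptx2 at -0.38.

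Shared sequence bears on these pairs, since the sources used here do not say how reads were divided between near-identical genes. Of the distinct 50-base stretches of the GENCODE transcripts, 16.1% of those of Lyz1 also occur in another gene, most of them in Lyz2, and 18.0% of those of Mptx2, most of them in Mptx1. The longest transcripts were 95.8% identical between Lyz1 and Lyz2 and 92.5% identical between Mptx2 and Mptx1. The share was 4.70% for Ang4, 0.972% for Itln1 and 0% for Pla2g2a. For Mmp7 it was 7.36% and for Habp2 6.48%, mostly with the genes AV064505 and Nrap, which overlap them on the opposite strand. Both overlapping genes were low, with AV064505 listed at 0 in TMX and at 0.0504 FPKM in con, and Nrap at 0.149 FPKM in TMX and 0.367 FPKM in con in the authors' deposited table. For Mmp7, Pla2g2a and Habp2 the locus in the table covered neighbouring genes as well, so these values are less certain. Stretches shared among the alpha-defensin genes were not counted.

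Each of 4 short sequence patterns was looked for in the 250 bases before each gene's RefSeq start, on both strands, for the 6 members with an entry in the RefSeq promoter table. The TATA box TATAAA occurred in Mmp7 among the members, beside 12.4% of 32851 promoters. The T-cell factor core CTTTGA occurred only before a further RefSeq start of Mmp7, beside 13.8% of promoters. That window lies inside the Mmp7 gene as GENCODE places it, and the window before the other Mmp7 start held no such match. The E-box CAGCTG was in no member, beside 13.0%. The STAT pattern TTCNNNGAA was in Ang4, beside 7.02%. A match is a description of letters in this window and no evidence of binding.

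Genes that specify or serve Paneth cells were read beside the same background of 5.7% called lower. Of 14 tested regulators, 2 were called lower and 0 higher in the authors' deposited table, with a median log2 fold change of -0.26. The Wnt receptor gene Fzd5, needed for Paneth cell maturation in mice, fell to 10.5 FPKM in TMX, against 22.0 FPKM in con, and Creb3l4, a membrane-bound transcription factor gene, to 2.74 FPKM in TMX, against 8.35 FPKM in con, in the authors' deposited table (q = 0.0111 and 0.0150). The call of Creb3l4, like that of Defa-ps18, was lost when genes without a test entered the adjustment. Atoh1, which sets the secretory lineage, was at 11.7 FPKM in TMX and 15.9 FPKM in con, and Sox9, required for Paneth cells, at 6.98 FPKM in TMX and 4.48 FPKM in con, in the authors' deposited table (q = 0.458 and 0.206). Ctnnb1, which encodes beta-catenin, was at 123 FPKM in TMX and 210 FPKM in con in the authors' deposited table (q = 0.252). Xbp1, a secretory stress factor, was at 55.0 FPKM in TMX and 62.9 FPKM in con in the authors' deposited table (q = 0.861).

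Among 16 tested genes of granule handling, autophagy and microbial sensing, 2 rose and 1 fell by the calls of the authors' deposited table. Of all tested genes 6.6% were called higher and 5.7% lower. Slc30a2, a zinc transporter gene of secretory granules, fell to 1.91 FPKM in TMX, against 5.86 FPKM in con (q = 0.0111), in the authors' deposited table. Nod2, the sensor of bacterial muramyl dipeptide, rose to 1.46 FPKM in TMX, against 0.307 FPKM in con, in the authors' deposited table (q = 0.0270). Nupr1, a stress-induced nuclear protein gene, rose to 119 FPKM in TMX, against 43.2 FPKM in con, in the authors' deposited table (q = 0.00355). Of 7 tested niche signals and surface markers, 1 was called lower and 0 higher, the marker Cd24a, at 68.8 FPKM in TMX and 145 FPKM in con in the authors' deposited table (q = 0.0163).

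Other secreted products ascribed to Paneth cells included larger changes on the log2 scale than any of the 7 members showed. Pnliprp2, a pancreatic-type lipase gene, fell to 13.8 FPKM in TMX, against 125 FPKM in con, in the authors' deposited table (log2 fold change -3.09, q = 0.00112). Its cofactor gene Clps, or colipase, fell to 26.6 FPKM in TMX, against 79.7 FPKM in con, in the authors' deposited table (q = 0.0256). On this list 4 of 12 tested genes were called lower and 3 higher, beside 5.7% and 6.6% of all tested genes. The other lower ones were Mptx1, given above, and Pigr, the receptor that carries IgA across the epithelium, at 103 FPKM in TMX and 618 FPKM in con in the authors' deposited table (q = 0.00200). The 3 higher ones were Lyz2, Tnf and Thbs1, which myeloid or stromal cells also make.

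Ang4 and Itln1 are also goblet cell products, and the values of goblet genes are given beside them. Of 12 tested goblet genes, 3 were called lower and 0 higher in the authors' deposited table, with a median log2 fold change of -0.77. Of all tested genes 5.7% were called lower and 6.6% higher. At a mean of at least 100 FPKM, 17.8% were called lower and 4.11% higher, and the median log2 fold change was -0.23. The goblet genes called were Retnlb, Tff3 and Clca1. Their log2 fold changes were -2.05, -1.26 and -2.08 in the authors' deposited table, beside -1.82 for Ang4 and -1.80 for Itln1. Of the 12 goblet genes, 11 had a log2 fold change below 0. The most abundant uncalled ones were Spink4, at 5515 FPKM in TMX and 11056.5 FPKM in con, Zg16, at 2139 FPKM in TMX and 4313 FPKM in con, and Agr2, at 998 FPKM in TMX and 1448 FPKM in con, in the authors' deposited table. The mucin gene Muc2 was at 252 FPKM in TMX and 262 FPKM in con in the authors' deposited table (q = 0.975). Enterocyte markers, which a crypt preparation can also hold, had 5 of 14 tested genes called lower and 0 higher, beside the same shares. The median log2 fold change of the enterocyte markers was -1.73. The 5 called were Lct, Alpi, Apoa1, Slc5a1 and Anpep. The part of goblet cells or enterocytes in the values of Ang4 and Itln1 was not tested.

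**Figure D4:**
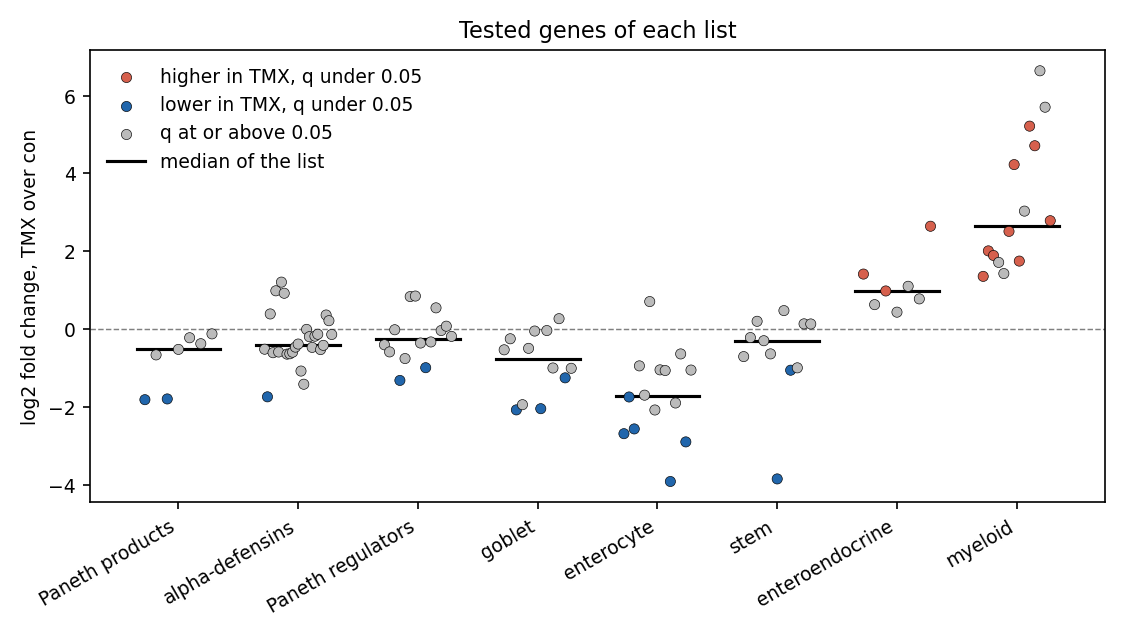
Log2 fold change (TMX over con) of the tested genes of 8 lists, 1 point per gene coloured by the call in the authors' deposited table, with a bar at each list's median. The Paneth products (median -0.53) lie beside the alpha-defensins (median -0.42), above the enterocyte list (median -1.73) and below the myeloid list (median 2.65).

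The genes nearest to each member on log2(FPKM + 1) in both conditions, a likeness over 2 pooled values only, differed between the members. Lyz1 lay nearest to the defensin genes Defa22 and Defa21, at distances of 0.248 and 0.273, followed by mt-Nd2 (0.327). Mmp7 lay nearest to Rack1 (0.0441), with Defa5 second nearest, at 0.107. Ang4 lay nearest to the brush-border disaccharidase gene Sis (0.307) and Itln1 to Clec2h (0.264). Pla2g2a was nearest to Muc2 (0.0515), Mptx2 to Plac8 (0.319) and Habp2 to Dhx40 (0.0171).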

How the data were processed

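RNA-seq of ileal crypts was used, from 3 Adar iΔgut and 3 Adar fl/fl libraries. STAR, Cufflinks and GRCm38 were used upstream, per the submitters' processing notes, without versions or parameters. The authors deposited 1 FPKM per gene for the pooled condition TMX and 1 for con, with their p-value and q-value and a test score, per the file headers. Fold changes in the table, on the log2 scale, came out as those of TMX plus 1 over con plus 1, as the authors deposited them, and the q-values equalled a Benjamini-Hochberg adjustment over the 15762 tested genes. The spread between libraries and their depth could not be read from these values.

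No new test was run: the calls are the authors', at q under 0.05. The members and the gene lists were chosen with earlier results of these data known. Levels, ratios, sums and medians were computed in Python 3.11.15 with pandas 2.3.3 and numpy 2.4.6, and figures were drawn with matplotlib 3.10.9. The adjustment was tested on simulated data. All 55446 gene identifiers matched GENCODE vM21, which gave coordinates (1-based), symbols and transcripts. Values of 60 genes marked HIDATA were left out. Named genes were drawn from the members, tested relatives, called genes of each list, the most abundant further genes of a list, and the nearest genes by level. Not every gene that this rule takes is named. Atoh1, Sox9 and Muc2 were named for their role after their values were seen. Alternatives covered the gene set behind the adjustment, the pseudocount and the scaling.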

Additional observations from a re-analysis of the deposited data

How the results depend on the processing

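The members called lower remained 2 (Ang4 and Itln1) when the p-values were adjusted over protein-coding genes or over genes of 1 FPKM or more on average, and at an unadjusted p under 0.05. With no filter on low values the count was 1, Itln1, with an adjusted p of 0.0351. The adjusted p of Ang4 ran from 0.0306 to 0.126 over the 3 other adjustments, and that of Itln1 from 0.00843 to 0.0351. With no filter, 1 regulator and 0 alpha-defensins were called lower, since more genes entered the adjustment. At an unadjusted p under 0.05, 3 regulators were lower and 2 higher, and 2 alpha-defensins were lower and 1 higher. Scaling to the same summed FPKM multiplied TMX by 1.16, moved the median of all tested genes to 0.23, and gave a members' median of -0.31, or -0.33 with Paneth products and defensins left out of the sum. Under that scaling to the same summed FPKM, Pla2g2a reversed to 0.0885 and Mmp7 came to -0.01, and the other 5 members stayed below 0. Ang4 then stood at -1.60 and Itln1 at -1.58. Scaling to the same median and pseudocounts of 0.1 or none kept every member below 0. The gap of 0.24 between the members' and the goblet median was 0.25 at a pseudocount of 0.1, and a common scaling leaves it in place by construction. No library could be left out, and no paired analysis was possible because the table holds 1 pooled value per condition. Depth is unknown, so its limit on low genes such as Habp2 cannot be given.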

Other observations

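Inhibitors of metalloproteases were called higher in TMX, and no metalloprotease gene was called. Of 10 tested genes of the family and its inhibitors, 2 rose and 0 fell by the calls of the authors' deposited table. Of all tested genes 6.6% were called higher and 5.7% lower. Before adjustment, 5 of the 10 had a p under 0.05, each higher in TMX. Timp2 rose to 13.8 FPKM in TMX, against 1.63 FPKM in con, and Timp3 to 6.27 FPKM in TMX, against 0.595 FPKM in con, in the authors' deposited table (q = 0.0398 and 0.0100). Both encode tissue inhibitors of metalloproteases. Mmp14, a membrane-bound metalloprotease gene, was at 6.02 FPKM in TMX and 2.14 FPKM in con in the authors' deposited table (q = 0.124). Mmp7 was the most abundant of the 8 tested metalloprotease genes in both conditions. Stromal markers were higher beside them, with 5 of 9 tested genes called higher and 0 lower and an FPKM sum of 110 in TMX and 11.4 in con, and their part in these values was not tested.

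Enteroendocrine genes, of another secretory lineage, were also listed in the other direction. All 7 tested had a log2 fold change above 0, and 3 rose and 0 fell by the calls of the authors' deposited table. They were Tph1, which starts serotonin synthesis, at 25.9 FPKM in TMX and 3.30 FPKM in con in the authors' deposited table, Chgb, a granin gene, and the hormone gene Cck. Mast cell markers, by contrast, had 3 of 5 tested genes called lower and 0 higher, beside 5.7% and 6.6% of all tested genes. The FPKM of the mast cell markers summed to 8.96 in TMX and 77.2 in con in the authors' deposited table.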
